A study of Mus musculus with 24 samples.

Results

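Mouse embryonic stem (ES) cells were compared with cells taken on day 2 of an untreated differentiation toward neural progenitors, to see which genes move during the exit from pluripotency while CTCF is present. The comparison takes 4 of the 24 libraries of the series, 2 of 0 h ES cells and 2 of day 2 control cells, chosen by their labels. All cells belong to F123, a mouse ES line in which CTCF, a DNA-binding protein that anchors chromatin loops, carries an auxin-inducible degron. The ES group is the 0 h point of an auxin course and the day 2 group is the differentiation control, so neither received auxin, but the degron-tagged protein was present in both groups and untagged parental cells were not analysed here. The differentiation course has no ES library of its own. Stage therefore cannot be told apart from any other difference between the 2 courses, here and in all results below. The labels give the ES medium as DMEM with 15% KnockOut Serum Replacement and LIF, and name neither the medium nor the agents of the differentiation. They do not say whether replicates are separate cultures, so the spread behind each p-value is that of these samples and may be technical, and whether the line is 1 clone is not stated.

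ES cells are held in a self-renewing state by a network of transcription factors around Pou5f1, Sox2 and Nanog, and LIF sustains the naive part of that network through its receptor and STAT3. ES cells also make their own FGF4, which signals through ERK and prepares them to leave this state. Retinoic acid, a vitamin A derivative, is a common inducer of neural differentiation in culture. It binds nuclear receptors (RAR with RXR) at response elements near target genes, among them its own degrading enzymes and the Hox genes, which give cells their position along the body axis.

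Total counts were 27386775 and 51686150 in ES replicates 1 and 2, and 58204586 and 65002822 on day 2. The ES replicates differed from each other far more than the day 2 replicates did. The standard deviation across genes of the log2 ratio between replicates was 0.57 in ES cells and 0.125 on day 2, and 1963 of the tested genes (9.9%) lay at least 2-fold apart between the ES replicates, against 2 genes (0.0101%) between the day 2 replicates. In the auxin-treated ES groups that standard deviation was 0.466 to 0.492, and in the other differentiation groups 0.121 to 0.258. The ES 0 h pair and the day 2 pair each differed by more than counting error alone. Values below are normalised read counts (CPM), each library being scaled to a common size by trimmed means over all 24 libraries, with replicate 1 given before replicate 2. Log2 fold changes are day 2 over ES, n = 2 per group, and adjusted p comes from edgeR's quasi-likelihood test over all genes tested. The standard error given with a log2 fold change is its absolute value divided by the square root of that test's F statistic. It thus carries a spread moderated across genes and is not computed from the 2 replicates alone. In each gene the test uses 1 spread for both groups, although the ES replicates differed far more.

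Of 19829 genes tested in the 4 libraries, 123 rose and 115 fell at an adjusted p below 0.05, which is 1.2% of genes in all, 0.62% upward and 0.58% downward. The lowest adjusted p was 0.0199 and 4656 genes had an unadjusted p below 0.05. The 238 genes changed by a median of 2.31 on the log2 scale and by at least 1.03, and none had overlapping libraries. Non-overlap by itself was common, at 58.9% of tested genes (32.4% higher on day 2 and 26.5% lower). A fit of all 24 libraries, in which every group shares the spread, called 2443 genes higher and 1885 lower of 23831 (10.3% and 7.91%). All 238 genes were called in the same direction there and by DESeq2, which called 2255 genes. This adds little, because both fits reuse the same 4 libraries and call many more genes. "Rose" and "fell" are used below only for genes that passed in the 4 libraries, and other genes are given by their values. Counts of list members called are to be read beside the shares of all genes tested, 0.62% upward and 0.58% downward. The 4-library count rested on each library. Without day 2 replicate 1 it was 27 higher and 8 lower, and without day 2 replicate 2 it was 0 (1075 genes at an unadjusted p below 0.05). Without ES replicate 1 it was 5996 and 5875, and without ES replicate 2 it was 7126 and 6295, where the spread comes from the day 2 replicates alone and the lone ES library is assumed to vary like them. Scaling by total counts gave 124 higher and 76 lower in place of 123 and 115, with the median of all genes at 0.117 in place of −0.03 on the log2 scale.

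**Figure D1:**
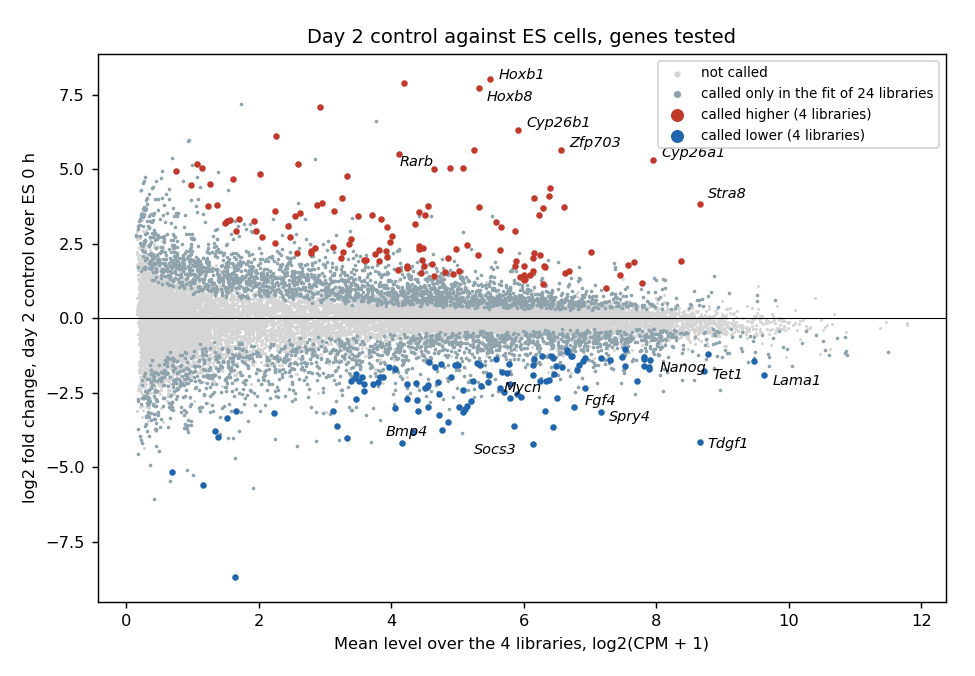
Log2 fold change of day 2 control over ES cells (vertical axis) against the mean level over the 4 libraries as log2(CPM + 1) (horizontal axis), 1 dot per tested gene. Genes called higher are red, genes called lower are blue, and genes called only in the fit of 24 libraries are grey-blue. Not drawn are 31 genes at 0 in both libraries of a group, among them Hoxb6, which was called higher. Called genes lie at or beyond a log2 fold change of 1.03 in either direction.

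Promoter sequences are shown for 3 called genes, picked because their promoters hold a motif that was searched for: Rarb and Cyp26a1, which rose, and Nanog, which fell. Each is the stretch of 250 bases before an annotated start, on the gene's strand, from the RefSeq table of GRCm38.p6 promoters, in lower case with the motif match in capitals. Rarb encodes a retinoic acid receptor and Cyp26a1 an enzyme that breaks retinoic acid down. Their capitals mark a retinoic acid response element of 2 half-sites separated by 5 bases, searched on both strands. A half-site was AGGTCA, its variant AGTTCA, the form GGGTCA or the form GGTTCA. It lies 53 to 37 bases before an annotated start of Rarb (chr14:16575477-16575726, minus strand). That start lies inside the gene's GENCODE vM21 span (16430839 to 16819156), so it is not the outermost start. In Cyp26a1 the element lies on the opposite strand to the gene, 32 to 16 bases before the start (chr19:37697558-37697807, plus strand). In Nanog (chr6:122707239-122707488, plus strand), a homeobox factor of the pluripotency network, the capitals mark a composite SOX-OCT element with 1 free base, read on the opposite strand to the gene, 75 to 62 bases before the start.
Rarb: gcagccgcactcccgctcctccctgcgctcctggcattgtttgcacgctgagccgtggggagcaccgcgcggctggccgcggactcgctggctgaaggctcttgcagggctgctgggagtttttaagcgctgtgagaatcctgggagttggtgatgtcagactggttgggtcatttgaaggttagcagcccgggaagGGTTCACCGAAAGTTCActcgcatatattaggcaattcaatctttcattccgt
Cyp26a1: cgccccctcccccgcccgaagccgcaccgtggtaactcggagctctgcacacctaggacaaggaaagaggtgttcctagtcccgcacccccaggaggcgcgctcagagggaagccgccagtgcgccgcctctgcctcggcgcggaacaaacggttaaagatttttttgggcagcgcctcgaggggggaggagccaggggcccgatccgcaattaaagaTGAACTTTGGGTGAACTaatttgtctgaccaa
Nanog: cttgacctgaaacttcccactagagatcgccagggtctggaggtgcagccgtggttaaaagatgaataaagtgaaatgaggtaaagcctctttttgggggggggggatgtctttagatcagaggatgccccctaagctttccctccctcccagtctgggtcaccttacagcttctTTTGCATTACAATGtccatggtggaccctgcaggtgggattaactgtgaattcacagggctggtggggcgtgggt

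Windows from 250 bases before to 50 after each start were searched for these motifs. The element with 5-base spacing was present in 32 of 32851 promoters of the table (0.0974%) and in 7 of the 12827 tested genes that have a promoter there. Of 83 genes that rose and have a promoter in the table, 2 held it, Rarb and Cyp26a1, and of 85 that fell 0 did. With 2-base spacing the element was in 88 promoters (0.268%), among them 1 gene that rose, Slc25a21, a mitochondrial carrier named here after its values were seen (0.553 and 0.69 CPM in ES cells, 17.3 and 17.7 on day 2). The SOX-OCT element was in 2 of the 32851 promoters (0.00609%), both of them annotated starts of Nanog. These matches describe the letters of the windows only.

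Enzymes and carriers of retinoic acid were among the strongest increases. Of 15 tested members of the list of retinoic acid breakdown and transport genes, 7 rose and 0 fell, with a median log2 fold change of 2.05 beside −0.03 for all genes. Cyp26a1 stood at 12.8 and 10.6 CPM in ES cells and 478 and 486 on day 2, a 40.1-fold rise (5.33 ± 0.19, adjusted p = 0.0199). Cyp26b1, another enzyme of the same family, went from 0.71 and 2.03 CPM to 115 and 119 (6.31 ± 0.51, adjusted p = 0.0312). In both genes the day 2 libraries lay close together and far above either ES library. Cyp26c1, the third family member, was at 0.474 and 0.325 CPM and then 3.68 and 4.51, and rose narrowly past the threshold (3.35 ± 0.39, adjusted p = 0.0496). In a bulk sample, more cells that express a gene and more RNA per cell cannot be told apart, here and in all results below.

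Dhrs3, which reduces retinaldehyde back to retinol, rose 17.2-fold from 8.76 and 8.77 CPM to 158 and 152 (4.11 ± 0.14, adjusted p = 0.0199). Stra6, the cell-surface receptor that takes up retinol from its carrier in blood, rose 16.3-fold from 8.45 and 7.41 CPM to 134 and 130. Crabp2, which carries retinoic acid to its receptors, rose 4.14-fold from 5.13 and 5.76 CPM to 23.5 and 22.8. Thus members of uptake, transport and breakdown rose, with no overlap between groups in any of them, as in every gene called. Lrat, which esterifies retinol for storage and is named after its values were seen, was at 0.0789 and 0 CPM in ES cells and 4.21 and 5.03 on day 2 but missed the threshold (adjusted p = 0.0558).

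Receptors behaved unequally. Rarb rose 32.6-fold from 2.13 and 1.24 CPM to 55.3 and 55.2 (5.03 ± 0.35, adjusted p = 0.0265). Rara was at 41.4 and 77 CPM in ES cells and 87.7 and 89 on day 2 (adjusted p = 0.344), and Rarg at 115 and 220 and then 100 and 103 (adjusted p = 0.246). The ES replicates of both genes were nearly 2-fold apart, and neither difference passed. Differences between the 3 receptors in their response were not tested.

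Among 23 tested receptors and targets of retinoic acid, 9 rose, 0 fell and the median log2 fold change was 1.79. Stra8, a gene first found by its induction with retinoic acid and later known as a switch into meiosis, rose from 42.4 and 60.4 CPM to 780 and 735 (3.85 ± 0.22, adjusted p = 0.0219). Zfp703, a zinc-finger repressor, rose 50.3-fold from 2.01 and 4.95 CPM to 180 and 186, and the forkhead factor Foxa1 rose 12.9-fold from 9.08 and 12.7 CPM to 143 and 145. Meis1, a cofactor that binds DNA together with Hox proteins, went from 4.74 and 3.75 CPM to 25.4 and 25.3 (2.54 ± 0.23, adjusted p = 0.0349). Tshz1, a zinc-finger factor of trunk patterning, rose 13.6-fold. Nrip1, a corepressor of nuclear receptors named after its values were seen, rose 4.69-fold from 45.9 and 42.8 CPM to 213 and 213. Cdx1, a caudal homeobox gene, was at 5.76 and 17.6 CPM in ES cells and 59.2 and 60.3 on day 2. Its ES replicates were far apart and the difference did not pass (2.32 ± 0.54, adjusted p = 0.119, and 0.0016 in the fit of 24 libraries).

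**Figure D2:**
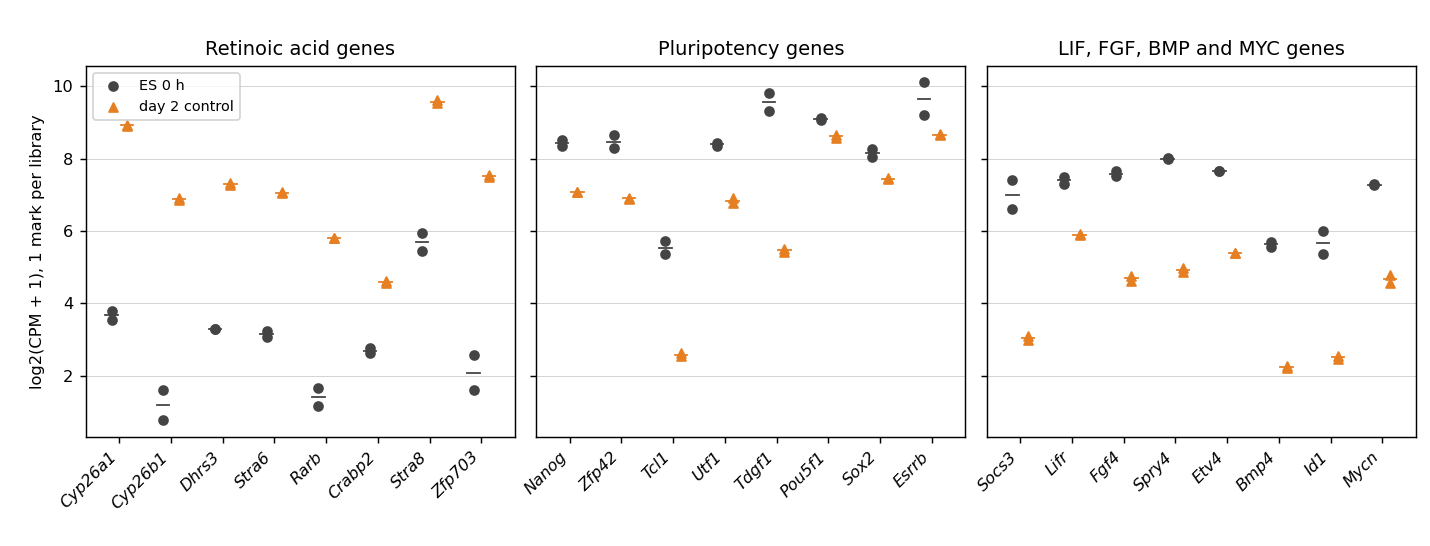
Levels of 24 genes as log2(CPM + 1) (vertical axis) in the 2 ES libraries (dark circles) and the 2 day 2 control libraries (orange triangles), with a short line at each mean. The retinoic acid genes lie higher on day 2 and the genes of the other panels lower. Pou5f1, Sox2 and Esrrb did not pass in the 4 libraries, and the other 21 did.

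Hox genes were among the largest increases, mostly in the HoxA and HoxB clusters. Of 36 Hox genes tested, 17 rose and 0 fell. In the HoxB cluster (mm10 chromosome 11, from Hoxb9 at 96271457 to Hoxb1 at 96368256), 8 of 10 tested genes rose, with a median log2 fold change of 6.6, the same with Hoxb6 set at its lower bound. Hoxb1, an anterior gene of the hindbrain, went from 0.0789 and 0.487 CPM to 87 and 88.5 (8.03 ± 0.60, adjusted p = 0.027). Hoxb8 went from 0.395 and 0.325 CPM to 75 and 80.5, and Hoxb5 from 0.0395 and 0.203 CPM to 33.5 and 35.4. Hoxb6 had 0 counts in both ES libraries and 2651 and 3000 on day 2, at least 1122-fold higher against 3 counts over the ES group, or 561-fold with all counts halved. Thus genes from the anterior end to the middle of the cluster went from near absence to readily measured levels. Hoxb2, Hoxb3 and Hoxb4 rose 135-fold, 69.6-fold and 31.9-fold, and Hoxb7, named after its values were seen, rose 12.2-fold. Hoxb9 was at 10.5 and 4.83 CPM in ES cells and 58 and 57.5 on day 2, and missed the threshold with ES replicates 2.17-fold apart (adjusted p = 0.07).

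In the HoxA cluster (mm10 chromosome 6, from Hoxa2 at 52162417 to Hoxa10 at 52240854 for the genes named here), the increases ran along most of the cluster. Hoxa4 was at 0.789 and 0.609 CPM in ES cells and 33 and 30.9 on day 2 (5.50 ± 0.26, adjusted p = 0.0209), with day 2 far above both ES libraries. Hoxa2 rose 36.3-fold, Hoxa3 33.1-fold, Hoxa4 45.2-fold and Hoxa5 50.4-fold, so neighbouring genes of the anterior part moved by like amounts. Further along the cluster Hoxa9 rose 11-fold from 2.09 and 1.83 CPM to 21.4 and 22.7, and Hoxa10 rose 5.39-fold from 5.6 and 6.92 CPM to 33.8 and 35.4. Hoxa7 was at 4.54 and 2.23 CPM and then 36.5 and 38.3, with an adjusted p of 0.0526.

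Of 8 tested genes in the HoxC cluster 2 rose, both at its anterior end. Hoxc4 went from 0.829 and 0.832 CPM to 11.6 and 12.2 (3.80 ± 0.26, adjusted p = 0.026) and Hoxc5 from 0.0789 and 0.284 CPM to 6.27 and 5.6, just inside the threshold (adjusted p = 0.0499). Hoxc8 was still near absence on day 2, at 1.11 and 0.616 CPM after 0 and 0.122 in ES cells (adjusted p = 0.15). At the posterior end the estimates were negative. Hoxc12 and Hoxc13, both named after their values were seen, were at 0.75 and 0.426 CPM and then 0.0682 and 0.15 (adjusted p = 0.145), and at 4.97 and 5.52 and then 1.84 and 1.95 (adjusted p = 0.0836). The fit of 24 libraries called 5 of 9 HoxC genes higher and 3 lower, these 2 among the latter. In the HoxD cluster 0 of 7 tested genes passed, with a median log2 fold change of 0.2, and the fit of 24 libraries called 1 of 9. Hoxd1 was at 0.395 and 3.19 CPM in ES cells and 1.81 and 1.83 on day 2, inside the ES range, and Hoxd4 was too low to be tested. The difference between clusters was not tested.

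**Figure D3:**
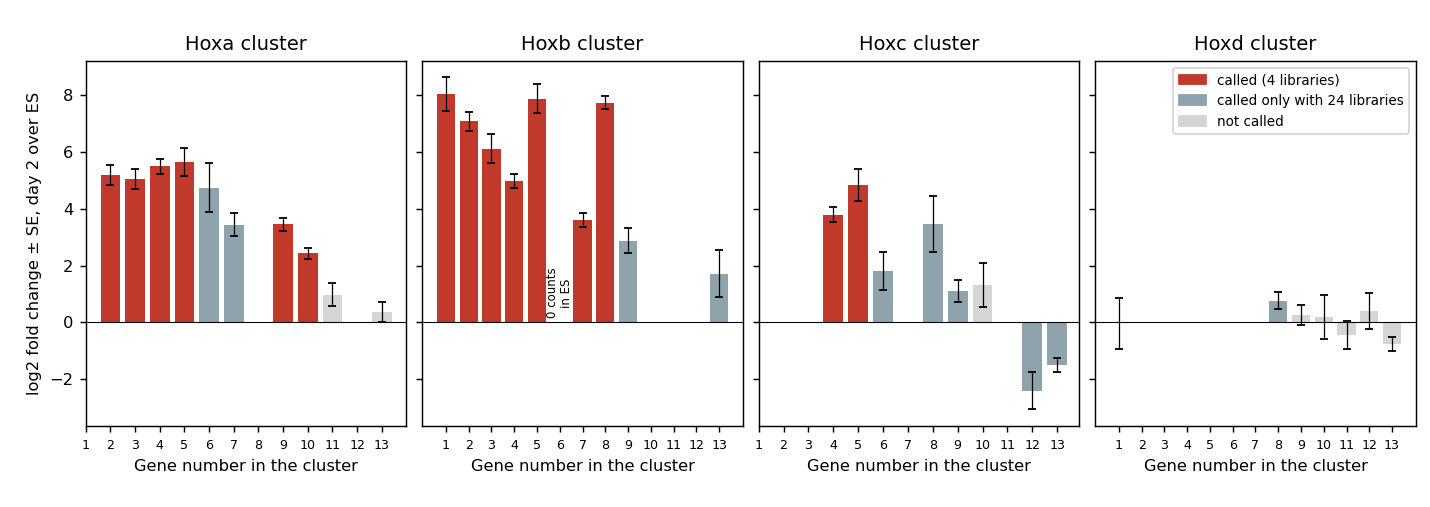
Log2 fold change of day 2 control over ES cells with its standard error (vertical axis) for tested Hox genes, by their number in the cluster (horizontal axis), in 4 panels for the 4 clusters. Red bars passed in the 4 libraries, grey-blue bars only in the fit of 24, and pale bars in neither; Hoxb6 has no bar because it had 0 counts in ES cells. Bars of the A and B clusters stand highest, and 0 of 7 in the D cluster are red.

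Pluripotency factors were lower on day 2 to different degrees. Of 23 tested naive factors 5 fell and 0 rose, with a median log2 fold change of −1.11, and 22 of the 23 estimates were negative. The fit of 24 libraries called 16 of the 23 lower. Nanog was at 322 and 363 CPM in ES cells and 133 and 133 on day 2 (−1.40 ± 0.12, adjusted p = 0.0327). Zfp42, also known as Rex1 and a standard marker of naive cells, fell 3.09-fold from 400 and 311 CPM to 120 and 117. Tcl1, a cofactor of AKT kinase, fell 9.49-fold from 51.9 and 39.9 CPM to 4.81 and 5.12, and Fbxo15, an F-box protein first found as a Pou5f1 target, fell 2.51-fold from 178 and 165 CPM to 69.9 and 70. So Nanog and Zfp42 kept a sizeable part of their ES level while Tcl1 was nearly lost.

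Other naive factors did not pass the test, and several had ES replicates far apart. Klf2 was at 133 and 44.8 CPM in ES cells and 39.6 and 40.8 on day 2 (adjusted p = 0.275), and Esrrb, an orphan nuclear receptor, at 1100 and 585 and then 409 and 397 (adjusted p = 0.168). Nr0b1 (126 and 36.5 CPM, then 14.7 and 15.7) and the imprint guardian Zfp57 (883 and 333 CPM, then 142 and 153), both named after their values were seen, had the same shape. In these 4 genes ES replicate 1 was the higher, and day 2 lay below both ES libraries, as in 26.5% of all genes tested. Tfcp2l1, which acts downstream of STAT3, was at 375 and 299 CPM and then 156 and 157 (adjusted p = 0.0687), and Klf4 at 410 and 244 and then 193 and 188 (adjusted p = 0.198). Tbx3 was at 518 and 266 CPM in ES cells and 310 and 323 on day 2, within the ES range. The cause of the ES difference was not tested.

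Of 18 tested core pluripotency factors 4 fell and 0 rose, with a median log2 fold change of −0.69. Tdgf1, the Nodal coreceptor Cripto, had the largest decrease of them, from 630 and 891 CPM to 42.1 and 44.3 (−4.17 ± 0.22, adjusted p = 0.0212). Utf1, a chromatin-bound factor of undifferentiated cells, fell 3.04-fold from 346 and 326 CPM to 108 and 119. Tet1, which oxidises methylcytosine, fell 3.44-fold from 666 and 629 CPM to 185 and 201. The central pair had smaller estimates and did not pass. Pou5f1 was at 530 and 559 CPM in ES cells and 403 and 378 on day 2 (−0.52 ± 0.12, adjusted p = 0.115), and Sox2 at 304 and 263 and then 172 and 174 (−0.75 ± 0.14, adjusted p = 0.0921). Both had day 2 libraries below both ES libraries, as did 26.5% of all genes tested. Both passed in the fit of 24 libraries (adjusted p = 0.0424 and 0.000739). Sall4 (286 and 299 CPM, then 345 and 340) and Lin28a (94.5 and 167, then 152 and 150) lay above or within the ES range on day 2.

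In the LIF pathway 3 of 16 tested genes fell and 0 rose, with a median log2 fold change of −1.10. They span the pathway from the cell surface to its readout. Lifr, the LIF receptor, was at 180 and 156 CPM in ES cells and 57.6 and 59 on day 2 (−1.56 ± 0.15, adjusted p = 0.0372). Stat3, the factor it activates, fell 2.19-fold from 133 and 139 CPM to 61.4 and 65.7. Socs3, a feedback inhibitor and direct STAT3 target, fell 18.6-fold from 95.4 and 169 CPM to 6.94 and 7.54 (−4.22 ± 0.33, adjusted p = 0.0301). The shared receptor subunit Il6st was at 150 and 133 CPM and then 99.1 and 101 (adjusted p = 0.131), and the STAT3 target Bcl3 at 19.7 and 41.2 and then 4.58 and 5.5 (adjusted p = 0.0725).

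The calls among FGF and ERK genes were all downward. Fgf4 was at 199 and 181 CPM in ES cells and 26 and 23.6 on day 2 (−2.98 ± 0.15, adjusted p = 0.0209), and was the only 1 of 18 tested FGF ligands and receptors to pass. The receptor Fgfr1 was at 143 and 136 CPM and then 160 and 164 (adjusted p = 0.416). Of 19 tested ERK feedback and target genes 4 fell and 0 rose, with a median of −0.73. Spry4, an inhibitor of receptor tyrosine kinase signalling, fell 8.9-fold from 258 and 252 CPM to 28.2 and 30.6, and its relative Spry2 fell 2.81-fold from 58.3 and 54.1 CPM to 20 and 21. The ETS factor Etv4 fell 5.05-fold from 201 and 200 CPM to 40.6 and 40.8. Etv5, its close paralog, was at 313 and 283 CPM and then 187 and 181 (adjusted p = 0.0863), and the ERK phosphatase Dusp6 at 154 and 151 and then 102 and 99.9 (adjusted p = 0.091). For all 5 of these genes the 2 groups did not overlap, which also held for 58.9% of all genes tested.

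The MYC genes, which drive growth and biosynthesis in ES cells, both fell. Myc was at 57.3 and 54.7 CPM in ES cells and 6.94 and 7.51 on day 2 (−2.99 ± 0.17, adjusted p = 0.0219). Mycn was at 153 and 156 CPM and then 22.5 and 26.7 (−2.69 ± 0.15, adjusted p = 0.0222). Myc and Mycn were the 2 of 26 tested G1 to S genes that passed. Ccnd1, the cyclin D1 gene, was at 65.5 and 83.3 CPM and then 28.9 and 29.8, just outside the threshold (adjusted p = 0.0526). Of 37 DNA replication genes 0 passed, with a median of −0.08, and Mcm2, a subunit of the replicative helicase, was at 468 and 488 CPM and then 541 and 529.

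Most calls among Nodal and BMP genes were downward. Of 17 tested Nodal pathway genes 4 fell and 0 rose: Tdgf1, Lefty2, Smad7 and Inhbb. Lefty2, a secreted Nodal inhibitor and target, fell 3.51-fold from 73.1 and 80.9 CPM to 21.3 and 23.7, while its neighbour in the family Lefty1 was at 57.1 and 18.4 CPM in ES cells and 143 and 143 on day 2 (1.88 ± 0.58, adjusted p = 0.168). The difference between the Lefty genes was not tested. Smad7, an intracellular inhibitor of TGF-beta signals, fell 4.33-fold from 139 and 118 CPM to 30.2 and 30.6, and Inhbb, an activin subunit, fell 6.79-fold from 33.9 and 35.1 CPM to 4.77 and 5.63. Nodal itself was at 176 and 87 CPM and then 79.9 and 77.6 (adjusted p = 0.285).

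Of 22 tested BMP ligands and targets 2 fell and 1 rose. Bmp4 was at 50.9 and 45.9 CPM in ES cells and 3.78 and 3.59 on day 2 (−3.75 ± 0.19, adjusted p = 0.0209). Id1, an inhibitor of helix-loop-helix factors that BMP signals induce, fell 11.3-fold from 62.6 and 40.1 CPM to 4.47 and 4.85. Id3, its relative, was at 23.7 and 5.3 CPM and then 2.52 and 2.46, with ES replicates far apart (adjusted p = 0.164). Msx1, a homeobox gene of the dorsal neural tube and a BMP target elsewhere, rose 10.7-fold from 0.71 and 0.893 CPM to 8.08 and 9.68. Thus the ligand and a main target fell while another listed target rose.

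The hedgehog and WNT lists held few calls in the 4 libraries, where 1.2% of all genes tested were called. The fit of 24 libraries called 9 of 15 hedgehog genes higher and 2 lower. Shh, the hedgehog ligand, was close to absence in ES cells at 0.0789 and 0.0406 CPM and reached 2.13 and 2.16 on day 2 (5.19 ± 0.51, adjusted p = 0.0398), the only 1 of 15 tested hedgehog genes to pass. Ptch1, its receptor and a standard target, was at 57.2 and 99.5 CPM and then 252 and 250 (adjusted p = 0.0794, and 7.43e-05 in the fit of 24 libraries), and Gli1, another target, at 17.3 and 11.2 and then 13.1 and 13.9 (adjusted p = 0.831). Of 32 WNT genes 1 rose (3 of 33 higher and 8 lower in the fit of 24 libraries), the secreted WNT antagonist Sfrp5 (2.05 and 1.95 CPM, then 9.32 and 10.4). The WNT feedback gene Axin2 was at 11.9 and 25.7 CPM and then 20.6 and 20.7. Of 17 Notch genes 0 passed, and the fit of 24 libraries called 0 of 20 higher and 3 lower.

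Formative and primed epiblast genes, which mark the state between naive cells and lineage commitment, gave a single call. Of 20 tested, 1 fell (Etv4, above) and 0 rose, with a median of 0.12, and the fit of 24 libraries called 5 higher and 4 lower. Fgf5, a standard epiblast marker, was at 3.12 and 1.3 CPM in ES cells and 3.94 and 3.74 on day 2. Otx2 was at 28.9 and 52.3 CPM and then 9.49 and 9.27 (adjusted p = 0.0703), and Pou3f1 at 7.74 and 10.5 and then 4.23 and 5.5. The DNA methyltransferase Dnmt3b was at 233 and 483 CPM and then 161 and 156, its cofactor Dnmt3l at 306 and 528 and then 118 and 112 (adjusted p = 0.0681), and Dnmt3a at 262 and 674 and then 1030 and 985 (adjusted p = 0.244). The ES replicates of Dnmt3a and Dnmt3b were over 2-fold apart, with replicate 2 the higher.

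Few neural genes passed on day 2, as did few of all genes tested (0.62% rose and 0.58% fell). Of 31 tested neural progenitor factors 2 rose, Meis1 and Msx1, with a list median of 0.53, and the fit of 24 libraries called 12 higher and 2 lower of 36. Pax6, a neural progenitor factor, was at 7.89 and 2.68 CPM in ES cells and 20 and 22 on day 2 (adjusted p = 0.156), and Sox1, the earliest neural plate marker, at 18.1 and 7.12 and then 18.1 and 19.3 (adjusted p = 0.547). Sox3 was at 5.76 and 8 CPM and then 13 and 17.1 (adjusted p = 0.13), and Pax3, a dorsal neural tube gene, at 0.0789 and 0.122 and then 1.23 and 1.29 (adjusted p = 0.0586). Of 13 forebrain and midbrain factors and 23 neuronal genes 0 passed, with medians of −0.12 and 0.18. The neuronal genes Neurog2 and Dcx were at or below 0.18 CPM in all 4 libraries. The anterior neural gene Six3 was at 0.355 and 0.568 CPM and then 0.187 and 0.301.

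Markers of other lineages gave few calls, where 1.2% of all genes tested were called. Of 22 tested streak and mesoderm genes 1 rose (Cyp26a1, which is also on the list of retinoic acid genes) and 1 fell (Bmp4). The streak gene T (brachyury) was at 15.4 and 25.1 CPM in ES cells and 4.24 and 4.25 on day 2 (adjusted p = 0.0582), Eomes at 20.6 and 46.2 and then 53.4 and 51.9, and Mesp1 at or below 0.284 CPM throughout. Of 15 trophoblast genes 0 passed, and Elf5 was at or below 0.568 CPM. Hand1, a mesoderm and trophoblast factor named after its values were seen, was at 12.8 and 32.4 CPM and then 1.38 and 1.19 (adjusted p = 0.0558). Of 18 neural crest and surface ectoderm genes 1 rose (Msx1), and Sox10 was at or below 1.87 CPM. Of 14 caudal progenitor genes only Cyp26a1 passed. Cdx2 was at 1.34 and 0.812 CPM and then 0.852 and 0.992, Nkx1-2 at or below 0.869 CPM, and Cdx4 too low to be tested.

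Endoderm transcription factors were already present in the ES libraries. Gata6 was at 90.5 and 154 CPM in ES cells and 169 and 175 on day 2, Gata4 at 42.4 and 107 and then 48.4 and 46.1, Sox17 at 39.9 and 30.1 and then 11.4 and 13, and Sox7 at 17.9 and 41.9 and then 31.5 and 31.6. None of these 4 genes passed (adjusted p = 0.35, 0.398, 0.0687 and 0.956). The summed level of the 25 listed endoderm genes was 9420 and 9350 CPM in ES cells and 4770 and 4680 on day 2, and most of it came from laminin, collagen IV and Sparc transcripts. Whether endoderm-like cells in the cultures had a part in any result was not tested. Fibroblast genes, which would mark feeder cells, summed to 449 and 229 CPM and then 218 and 217, 0 of 19 passed, and Col1a1 was at 4.74 and 15.7 CPM and then 11.2 and 12.

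Nearly all basement membrane genes had lower estimates on day 2. Of 16 tested 3 fell and 0 rose, 15 estimates were negative and the median was −1.10, while the ES replicates themselves differed by a median of −0.49 (replicate 2 minus 1). Of all genes tested 0.58% fell. The fit of 24 libraries called 1 of the 16 higher and 11 lower. Lama1, the laminin chain of the early embryonic basement membrane, was at 1300 and 1180 CPM in ES cells and 340 and 344 on day 2 (−1.90 ± 0.13, adjusted p = 0.0265). Nid1, which links laminin to collagen IV, fell 3.29-fold from 404 and 315 CPM to 114 and 111. Sparc, a matrix-binding glycoprotein, fell 2.7-fold from 919 and 1150 CPM to 403 and 380. The partners of Lama1 had smaller log2 fold changes and did not pass: Lamb1 was at 1390 and 1150 CPM and then 668 and 653 (−0.98 ± 0.16, adjusted p = 0.0736), and Lamc1 at 1530 and 1140 and then 676 and 663 (−1.03 ± 0.19, adjusted p = 0.0904). The difference between the laminin genes was not tested. The collagen IV chain Col4a2 lay just outside the threshold (1030 and 930 CPM, then 462 and 461, adjusted p = 0.0502).

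Adhesion genes gave 1 call of 25 on the epithelial list, where 1.2% of all genes tested were called. The fit of 24 libraries called 1 of 25 higher and 6 lower. Dsp, a desmosome plaque protein, rose 2.89-fold from 50 and 47.8 CPM to 144 and 146. Cdh1, E-cadherin, was at 921 and 518 CPM in ES cells and 302 and 295 on day 2 (adjusted p = 0.123). Cdh2, the N-cadherin of neural cells, was at 13.4 and 8.32 CPM and then 9.68 and 10.5. Neither cadherin passed.

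Germline genes gave 3 calls of 32 tested, all upward, with a median of 0.72, while 0.62% of all genes tested rose. The fit of 24 libraries called 14 of 32 higher and 3 lower. Besides Stra8, Rec8, a cohesin subunit of meiosis, rose 7.61-fold from 14.8 and 11.2 CPM to 97.9 and 105, and Meioc, which prolongs the meiotic prophase programme, rose 2.61-fold from 30.9 and 34.6 CPM to 86 and 89.1. Dazl, an RNA-binding protein of germ cells, was at 30.5 and 110 CPM and then 269 and 246 (adjusted p = 0.183), and Ddx4 at 18.5 and 25.2 and then 41.8 and 39.4 (adjusted p = 0.119). Another 2 genes, of primordial germ cells, had lower values on day 2 without passing: Prdm1 was at 15.3 and 13.1 CPM and then 11.4 and 10.8, and Dppa3 at 15.3 and 11.2 and then 3.2 and 3.82 (adjusted p = 0.0674). On the list of genes of the 2-cell-like state, a rare state of ES cultures, 1 of 23 rose (12 higher and 3 lower of 24 in the fit of 24 libraries). It was Usp17le (26 and 25.9 CPM, then 90.3 and 86.7). Zscan4d lay just outside the threshold (32.2 and 32.6 CPM, then 73.3 and 70.8, adjusted p = 0.0518), as did Zscan4f and Zscan4c (adjusted p = 0.0526 and 0.0539). The Usp17l and Zscan4 genes are near-identical copies, so their reads cannot be assigned to a single gene with certainty.

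The calls among stress genes of the ATF4 branch were upward. Of 22 tested integrated stress response targets 2 rose and 0 fell, with a median of 0.66, while 0.62% of all genes tested rose. The fit of 24 libraries called 12 of 22 higher and 1 lower. Trib3, a pseudokinase that feeds back on ATF4, rose 4.05-fold from 22.3 and 31.9 CPM to 114 and 110, and Ddit3 (CHOP) rose 2.85-fold from 9.91 and 11.2 CPM to 30.6 and 31.1. Herpud1, a factor of protein degradation at the endoplasmic reticulum, rose 3.78-fold from 22.4 and 25.3 CPM to 94.1 and 90.8, the only 1 of 23 heat shock and unfolded protein genes to pass. The chaperone Hspa5 was at 1170 and 931 CPM and then 934 and 871. Of 25 p53 targets 2 fell, while 0.58% of all genes tested fell. The fit of 24 libraries called 1 of 25 higher and 10 lower. The 2 that fell were Pmaip1, also named NOXA (90.7 and 127 CPM, then 28.5 and 30.4), and Plk2 (135 and 150, then 44.5 and 48.5). The cell cycle inhibitor Cdkn1a was at 119 and 212 CPM and then 77.6 and 82.3 (adjusted p = 0.143). Of 26 immediate early genes 2 fell (0 higher and 6 lower in the fit of 24 libraries). They were Nr4a1 (41.3 and 32.7 CPM, then 7.58 and 7.56) and Maff (16.1 and 20.1, then 3.99 and 4.04).

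Glycolysis and hypoxia genes showed the ES replicate difference most clearly. Over 34 genes the median log2 difference between ES replicate 2 and 1 was 1.53, against 0.01 between the day 2 replicates and 0.04 over all genes in ES cells. Bnip3, a hypoxia-induced mitophagy receptor, was at 4.18 CPM in ES replicate 1 and 146 in replicate 2, with 50.2 and 52.1 on day 2. Egln3, an oxygen sensor, was at 11.1 and 241 CPM and then 34.3 and 38.8, and Ndrg1, another hypoxia gene, at 18.6 and 134 and then 12.6 and 13.3; these 3 genes were named after their values were seen. The glycolytic enzymes Pfkl (152 and 762 CPM) and Ldha (459 and 1510 CPM) shared the pattern, and their day 2 values (263 and 272, 563 and 568) lay between the ES libraries. Of the 34 genes 0 passed. The part of this ES difference in other results was not tested.

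Ribosomal protein genes lay slightly lower on day 2 in every case. All 49 tested had a negative log2 fold change, with a median of −0.47. Of the 49, 46 lay lower on day 2 without overlap between groups, as did 26.5% of all genes tested. In the 4 libraries 0 passed, and 3 did in the fit of 24. With total count scaling 47 of the 49 were negative and the median was −0.32. Rpl3 was at 1180 and 1060 CPM in ES cells and 937 and 892 on day 2 (adjusted p = 0.235). The ES replicates of the 49 genes differed by a median of −0.42, close in size to the difference between groups. Of 25 cholesterol synthesis genes 0 passed, with a median at 0.

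Chromatin genes gave few calls, where 1.2% of all genes tested were called. Of 20 DNA methylation genes 1 fell (Tet1), and its relative Tet2 was at 292 and 184 CPM and then 161 and 160 (adjusted p = 0.252), while Dnmt1 was at 499 and 503 and then 538 and 537. Of 28 Polycomb and trithorax subunits 0 passed, with Eed at 257 and 220 CPM and then 151 and 147 (adjusted p = 0.099). Of 12 CTCF and cohesin genes 0 passed. Ctcf mRNA was at 217 and 172 CPM in ES cells and 229 and 223 on day 2 (0.18 ± 0.17, adjusted p = 0.563); mRNA does not check the tagged protein. Its germline paralog Ctcfl was at 0.592 and 1.4 CPM and then 6.49 and 7.99 (2.79 ± 0.48, adjusted p = 0.0796, and 0.000197 in the fit of 24 libraries). Of 31 imprinted genes 0 passed, with H19 at 2.09 and 40 CPM in ES cells.

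**Figure D4:**
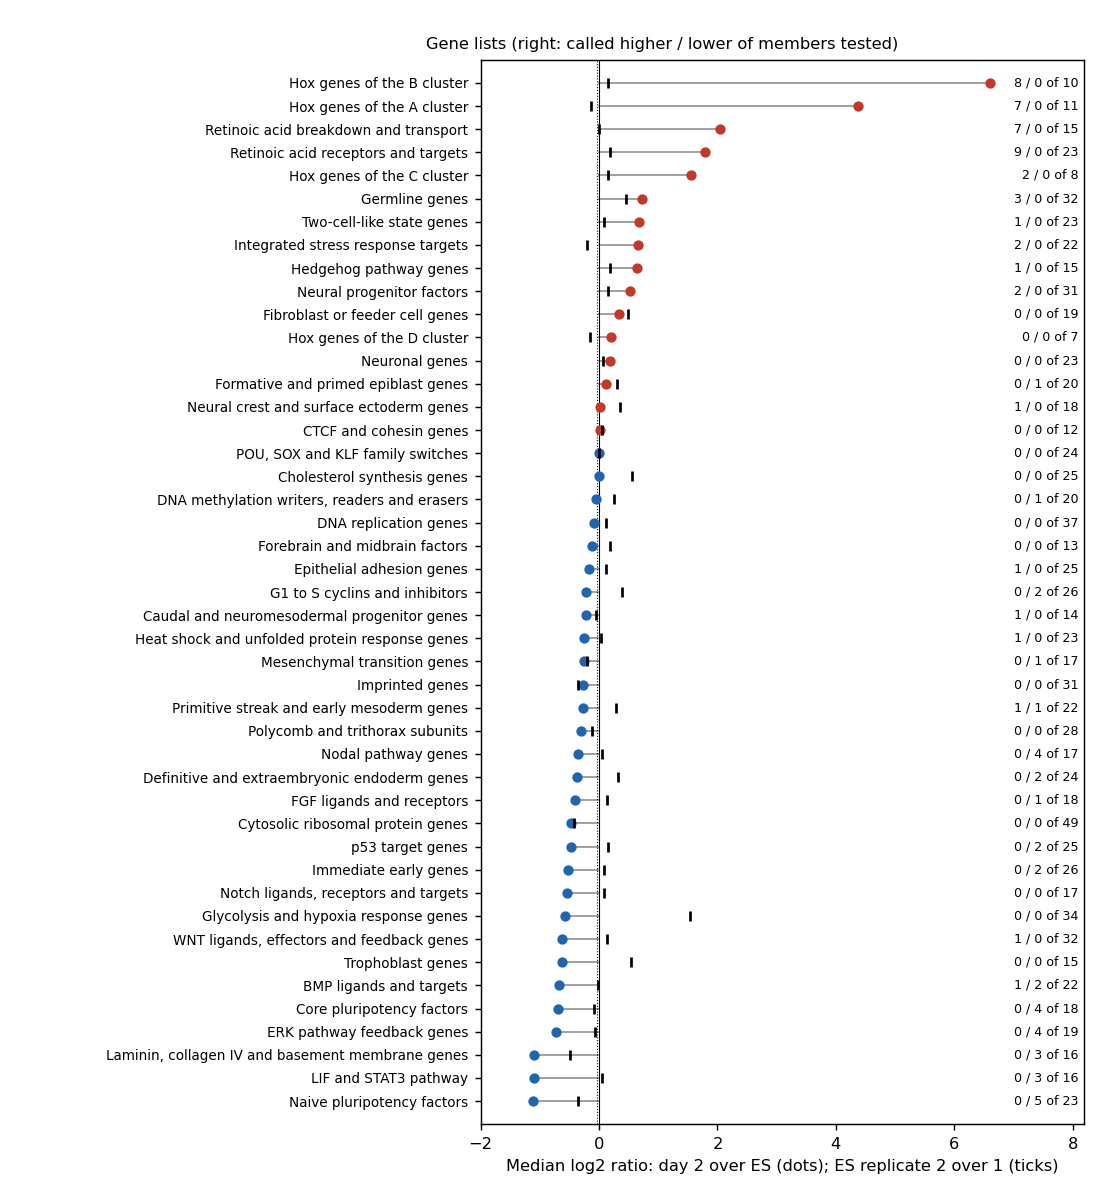
Median log2 ratio of each gene list (horizontal axis; 1 row per list): dots give day 2 over ES over the tested members, red above 0 and blue below, and ticks give the log2(CPM + 1) difference of ES replicate 2 minus replicate 1. Figures at the right are members called higher and lower of those tested, and the dotted line is the median of all genes, −0.03. The HoxB and HoxA lists lie farthest right, and for glycolysis and hypoxia genes the replicate tick (1.53) lies farther from 0 than the dot (−0.58).

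Among the largest decreases were genes of metabolism and transport that are on none of the lists. Tdh, threonine dehydrogenase, which feeds folate metabolism in mouse ES cells, was at 200 and 117 CPM in ES cells and 13.2 and 12.9 on day 2 (−3.65 ± 0.33, adjusted p = 0.0354). The citrate transporter Slc13a5 fell 14.1-fold from 27.1 and 44 CPM to 2.61 and 2.55, the organic anion transporter Slco4a1 fell 12.4-fold from 15.5 and 14.1 CPM to 1.19 and 1.25, and the riboflavin transporter Slc52a3 fell 8.7-fold. Kirrel2, a cell-surface immunoglobulin protein, fell 16.3-fold from 21.6 and 12.6 CPM to 0.989 and 1.17. Lgals3, a galactose-binding lectin, fell 8.93-fold from 49 and 68.9 CPM to 6.44 and 7.06, and Nptx1, a pentraxin, fell 12.4-fold from 124 and 84.6 CPM to 8.15 and 9.2. The potassium channel gene Kcnh4 and the homeobox gene Pou4f2 fell 8.7-fold and 9.14-fold from levels under 8 CPM.

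Genes next to the threshold show how narrow it was. Named by their place at the threshold, those just inside were Catsperz, Sdc4, Platr10, Cyp26c1 and Hoxc5, with adjusted p from 0.049 to 0.0499. Just outside were Col4a2, Rai1, Fgf17, Osr2 and Zfp750, at 0.0502 to 0.0504. Scaling by total counts ended the calls of Hoxc5, Ddit3, Kcnh4, Maff, Pmaip1, Pou4f2, Sparc, Spry2 and Stat3, and DESeq2 size factors in edgeR ended that of Cyp26c1; their directions stayed. Fgf17, an FGF of the streak and isthmus named after its values were seen, was at 5.41 and 2.78 CPM in ES cells and 0.136 and 0.18 on day 2 (−4.70 ± 0.55), so a missed threshold here does not mean a small difference.

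The later course of these genes was read from the control libraries of days 4 and 6. In the comparison of day 4 with day 2, which shares the day 2 libraries, 67.8% of 20185 genes were called (34% higher, 33.9% lower). That share rests on the narrow spread of these replicates. The fit of 24 libraries called 5746 of 23831 genes, so how common a further change was depends on the spread used. Some increases were transient. Hoxb1 went from 87 and 88.5 CPM on day 2 to 36.9 and 33.7 on day 4 and a mean of 12.2 on day 6, and Stra8 from 780 and 735 to 399 and 394 and then 116. Cdx1, which had not passed on day 2, went from 59.2 and 60.3 CPM to 1.61 and 2.42 by day 4 (log2 fold change of day 4 over day 2, −4.86). Trib3, Ddit3 and Chac1, a stress-induced enzyme that degrades glutathione, were all lower on day 4 than on day 2, with Trib3 at 16.3 and 15.3 CPM. Chac1 had been at 4.54 and 10.3 CPM in ES cells and 85.5 and 80 on day 2, just outside the day 2 threshold (adjusted p = 0.0531).

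Other increases were the start of a longer rise. Cyp26b1 reached 774 and 786 CPM on day 4, and Rarb reached 192 and 187. Tshz1, Meis1 and Hoxc4 were also called higher on day 4 than on day 2, by 2.08, 2.36 and 1.77 on the log2 scale. Hoxc8, near absence on day 2, stood at 38.1 and 38.8 CPM on day 4. Cyp26a1 changed less, from 478 and 486 CPM to 662 and 637. Among the decreases, Fgf4, Spry4, Utf1, Nanog and Lefty2 went on falling, with Nanog at 18.9 and 19 CPM and Spry4 at 2.07 and 2.24 on day 4.

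Another set fell by day 2 and was higher again on day 4. Id1 was at 4.47 and 4.85 CPM on day 2 and 64.5 and 63.3 on day 4, and Mycn at 22.5 and 26.7 and then 132 and 131. Lama1 went from 340 and 344 CPM to 3460 and 3620, above both ES libraries. Lifr went from 57.6 and 59 CPM to 227 and 229, and Stat3 from 61.4 and 65.7 to 133 and 130. Myc (20.5 and 20.4 CPM on day 4), Tdh (36.1 and 34.3) and Slc13a5 (13 and 12.6) recovered part of their ES level. For each gene in this paragraph the day 4 libraries lay above the day 2 libraries and the difference was called.

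**Figure D5:**
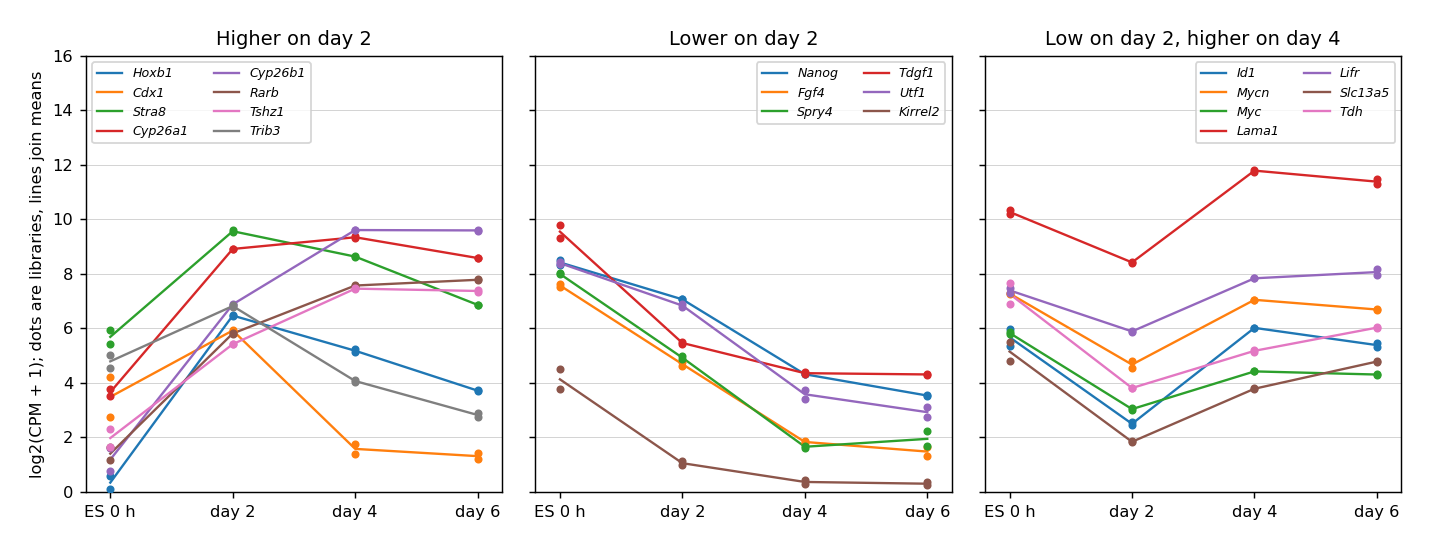
Levels of 21 genes as log2(CPM + 1) (vertical axis) in ES cells and in control cells of days 2, 4 and 6 (horizontal axis); dots are libraries, 2 per group, and lines join group means. Genes are shown in 3 panels by their course: higher on day 2, lower on day 2 and lower again on day 4, and low on day 2 but higher on day 4. Cdx1, Hoxb1, Stra8 and Trib3 turn down after day 2, and Id1, Mycn and Lama1 turn up.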

How the data were processed

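The authors deposited whole-number read counts per gene for the 24 libraries, not normalized. STAR, HTSeq, edgeR and the mm10 build are named in the submitters' processing notes; the sources used here give no version, annotation or strand setting. Reads of overlapping or near-identical genes may therefore be shared, and antisense partners cannot be told apart. Among counts of 1 to 20, 67.2% to 75.5% were even in the 4 libraries, so halved counts were tried. From the 51697 named genes, 1 line without a name being left out, edgeR 4.0.16 in R 4.3.3 kept those passing filterByExpr (minimum count 10, minimum total 15), scaled by TMM, and fitted a quasi-likelihood model to the 4 libraries compared, with Benjamini-Hochberg adjustment. Alternatives covered the libraries fitted, scaling, filter, DESeq2 1.42.0, thresholds and each replicate left out.

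The 45 gene lists are described by counts and medians without a test, and they share members. Named genes are the key members of the lists, the 15 largest changes each way among genes whose libraries do not overlap and whose mean log2 CPM reaches 1 (predicted genes left out), and up to 4 further changed members per list. Not every gene under this rule is named, and some are not reported here. The members and lists were chosen with earlier results of these data known. Coordinates come from GENCODE vM21 by symbol, which matched 96% of tested genes. Promoters come from RefSeq on GRCm38.p6, the same build as mm10.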

Additional observations from a re-analysis of the deposited data

How the results depend on the processing

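The number of genes called depended strongly on which libraries set the spread. Against 238 in the 4 libraries (123 higher, 115 lower), the fit of 24 libraries called 4328 (2443, 1885), the 8 control libraries 4592 (2487, 2105), DESeq2 2255 (1087, 1168) and no filter on low counts 1293 (690, 603). A minimum count of 50 gave 186 higher and 162 lower, total count scaling 124 and 76, and an adjusted p below 0.01 gave 0 in edgeR (0 higher, 0 lower). Leaving out 1 library moved the count from 0 to 13421 (0 to 7126 higher, 0 to 6295 lower). With a replicate block 1161 genes were called (576, 585). The labels do not say whether equal replicate numbers pair the samples. Replicate differences of the 2 groups did not correlate (−0.014), but the day 2 replicates differed too little for this to decide the question. Day 4 against day 2 gave 13692 calls, 12652 to 12957 without a library, 13767 with a replicate block and 5746 in the fit of 24 libraries.

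All 77 called genes in the text kept their direction in the 15 alternatives. This was largely fixed in advance. The alternative thresholds reuse the same fold changes, and the libraries of called genes do not overlap, so leaving out 1 library could hardly reverse a direction. The calls themselves were less stable, as the counts above show. Of the genes not called, some changed sign, 8 of them without ES replicate 1 and 9 without ES replicate 2. None did so without either day 2 library, and the cause was not tested. With each library left out in turn, the log2 fold change ran from −0.32 to 0.77 for Axin2, −1.52 to 3.58 for Bnip3, −0.45 to 0.27 for Cdh2, −0.57 to 0.18 for Cdx2, −0.45 to 1.26 for Col1a1, −2.73 to 1.68 for Egln3, −1.63 to 1.15 for Elf5, −1.19 to 0.12 for Gata4, −0.39 to 0.26 for Gli1, −1.36 to 2.87 for H19, −0.81 to 2.17 for Hoxd1, −1.42 to 0.27 for Ldha, −0.15 to 0.64 for Lin28a, −1.52 to 0.78 for Pfkl, −0.99 to 1.22 for Sox10, −0.42 to 0.78 for Sox7 and −0.75 to 0.24 for Tbx3. With a replicate block it was 0.91 for Bnip3, 0.63 for H19 and 0.49 for Hoxd1, and with total count scaling 0.01 for Cdh2, 0.04 for Gli1 and 0.08 for Hoxd1. List medians of at least 0.5 in size kept their sign in all settings run except 2: WNT genes were at 0.03 with a minimum count of 50, and glycolysis and hypoxia genes at 0.31 without ES replicate 2. Halving all counts gave 158 genes higher and 138 lower.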
